A study of Mus musculus with 6 samples.

Results

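FANTOM3 is a catalogue of full-length mouse cDNA clones, and the expression table of tumor-associated endothelial cells (TECs) listed these clones beside the RefSeq genes. The loci described here were the FANTOM3 transcripts whose position overlapped no RefSeq row on either strand. Of 56826 rows in the table, 33353 were FANTOM3 rows and 23473 were RefSeq rows, and 7746 FANTOM3 rows lay outside every RefSeq row. Rows that overlapped each other were merged and the longest was kept, which gave 6702 loci. Of these, 738 averaged 1 RPKM or more in the 6 libraries and were tested (RPKM scales the reads of a transcript to its length and to the reads of the library). Another 5415 loci had a mean above 0 and under 1 RPKM, and 549 were listed at 0 in all 6 libraries. Loci were chosen by position, and the tested ones also by their mean level, but not by a difference between the groups.

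The study activated Notch signalling in endothelial cells of mice bearing Lewis lung carcinoma (LLC), a transplanted mouse tumor line, and asked how the TEC transcriptome changed. The 3 NICeCA mice carried Cdh5 cre ERT2, a tamoxifen-inducible Cre driven by the VE-cadherin promoter, and a Rosa26 allele in which Cre removes a stop cassette before the Notch1 intracellular domain. The 3 Ctrl mice were labelled wild type, and all 6 mice were C57BL/6 with a labelled age of 8 weeks. Cells were pulled from dissociated tumors with CD31-coated beads, and 1 library was made per mouse after ribosomal RNA depletion. The labels say that tumors were taken on different days, while the study's methods give a single day after inoculation and speak of 3 pairs of mice. Neither ties a day or a pair to a library.

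Much of the genome outside protein-coding exons is transcribed. Such transcripts include long 3′ ends that run past the annotated gene, long noncoding RNAs that stay in the nucleus, RNAs started from the opposite strand of a promoter (divergent transcripts) and introns captured before splicing. Cleaved Notch enters the nucleus and acts with the DNA-binding protein RBPj, whose core motif is TGGGAA. MYC, a growth-promoting factor that the study also followed, binds the E-box CACGTG with its partner MAX.

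The sequences below are those of the loci on which the results turn, written 5′ to 3′ on the strand of the transcript in GRCm38 coordinates, from the GENCODE transcript at the locus. The first pair are the first bases of 2 clones within the long form of Neat1, at chr19:5835791-5835940 and chr19:5840029-5840178 on the minus strand. Neat1 is the architectural RNA of nuclear paraspeckles, and these clones had the largest decreases.
5830408G10: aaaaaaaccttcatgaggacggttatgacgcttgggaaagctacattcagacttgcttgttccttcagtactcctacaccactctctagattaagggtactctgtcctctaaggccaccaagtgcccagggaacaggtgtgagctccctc
F630311A01: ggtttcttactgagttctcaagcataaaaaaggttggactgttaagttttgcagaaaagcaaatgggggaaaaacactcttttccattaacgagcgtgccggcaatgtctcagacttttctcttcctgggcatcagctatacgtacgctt
The other pair are the first bases of C430005K08, in the long noncoding RNA AU020206 (chr7:75771897-75772046, minus strand), and of A130051O18, in the antisense RNA E230032D23Rik (chr7:143628024-143628173, plus strand). They are among the 5 loci with the smallest adjusted p, 1 in each direction.
C430005K08: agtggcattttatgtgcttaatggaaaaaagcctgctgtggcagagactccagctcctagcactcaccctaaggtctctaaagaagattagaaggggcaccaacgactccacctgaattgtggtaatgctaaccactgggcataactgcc
A130051O18: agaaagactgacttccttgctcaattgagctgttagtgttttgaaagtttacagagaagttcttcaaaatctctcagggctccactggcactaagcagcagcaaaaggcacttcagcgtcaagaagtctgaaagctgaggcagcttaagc

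The libraries held 35303191 to 39823498 reads over all rows, and the Ctrl libraries were the deeper group. The loci took 1.22%, 1.12% and 1.26% of those reads in Ctrl and 0.982%, 1.11% and 1.09% in NICeCA, with means of 1.20% ± 0.073 and 1.06% ± 0.070 (SD, n = 3), and every NICeCA library lay below every Ctrl library, the closest pair by a narrow margin. A single locus, G830027M03, held 62894 of the 445680 locus reads of Ctrl replicate 2 and 20902 of the 358401 of NICeCA replicate 1. The shares without this locus were not computed, so the difference cannot be taken as a trait of the loci as a whole. For loci at least 5 kb from any RefSeq row the shares overlapped, at 0.607%, 0.477% and 0.542% in Ctrl and 0.493%, 0.567% and 0.533% in NICeCA. Notch1 itself did not pass the test (adjusted p = 0.71 with limma), while the Notch target Hey1 rose from 3.67 ± 1.63 to 8.87 ± 2.47 RPKM (adjusted p = 0.038). All 12 endothelial markers were detected, and no marker of the 6 lists used was at 0 in every library. The endothelial markers had a summed level of 247 to 626 RPKM in Ctrl and 537 to 699 RPKM in NICeCA. The 9 macrophage markers found in the table summed to 6950 to 9926 RPKM in Ctrl and 5370 to 9195 RPKM in NICeCA, above the endothelial sum in every library. The 10 neutrophil markers found in the table summed to 119 to 273 RPKM in Ctrl and 633 to 1712 RPKM in NICeCA, and 7 of the 8 tested were higher, beside 4.33% of all rows tested. Of the other lists, 1 of 12 endothelial and 3 of 9 macrophage markers were higher, 2 of 9 fibroblast and pericyte markers were higher and 2 lower, 1 of 2 epithelial markers was lower, and 0 of 6 T and NK markers were called at an adjusted p under 0.05. The summed levels of markers of fibroblasts and pericytes (80.2 to 132 and 99.7 to 180.2 RPKM), T and NK cells (35.1 to 48.8 and 31.1 to 41.9 RPKM) and epithelium (6.59 to 12.3 and 6.07 to 8.53 RPKM) overlapped between Ctrl and NICeCA. In such mixed samples, fewer cells of a type and less RNA per cell cannot be told apart.

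The first question was how many loci changed with Notch activation. Of the 738 loci, 33 were higher and 73 were lower in NICeCA at an adjusted p under 0.05 (limma on log2(RPKM + 1), fitted and adjusted over all 23670 rows tested). This was 14.4% of the loci, beside 13.6% of all rows tested and 13.6% of the RefSeq rows. By direction, 4.47% of the loci were higher and 9.89% were lower, beside 4.33% and 9.23% of all rows and 5.92% and 7.73% of the RefSeq rows. The loci were therefore called about as often as any other row. With quantile normalization in place of the deposited scale, 37 loci were higher and 18 lower, so that the higher share of the calls was 67.3% in place of 31.1%. Over all rows tested that share was 62.5% in place of 32.0%. The count of called loci also rested on single libraries: 7 loci were higher and 1 lower without NICeCA replicate 1, and 4 higher and 1 lower without NICeCA replicate 2. Calls over all rows tested fell too, from 3211 to 178 and 137, so this was not particular to the loci.

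The median log2 fold change was -0.17 over the loci, -0.12 over all rows tested and -0.05 over the RefSeq rows. In 63 loci (8.54%) every NICeCA library lay above every Ctrl library and in 227 (30.8%) every one lay below, together 39.3% of the loci. Over all rows these shares were 12.4%, 28.6% and 41%. Of the called loci, 32 of the 33 higher and all 73 lower had groups that did not overlap. With 3 libraries a group the test itself favours such rows, so this adds no support to the calls. The filter on low values let some loci in through 1 group: 98 loci had a mean of at least 1 RPKM in Ctrl alone, of which 21 were lower and 0 higher. A further 30 reached it in NICeCA alone, of which 10 were higher. Among the 610 loci that reached it in both groups, 23 were higher and 52 lower. The shares called were 21.4%, 33.3% and 12.3% in these sets of loci, beside 13.6% of all rows tested.

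**Figure D1:**
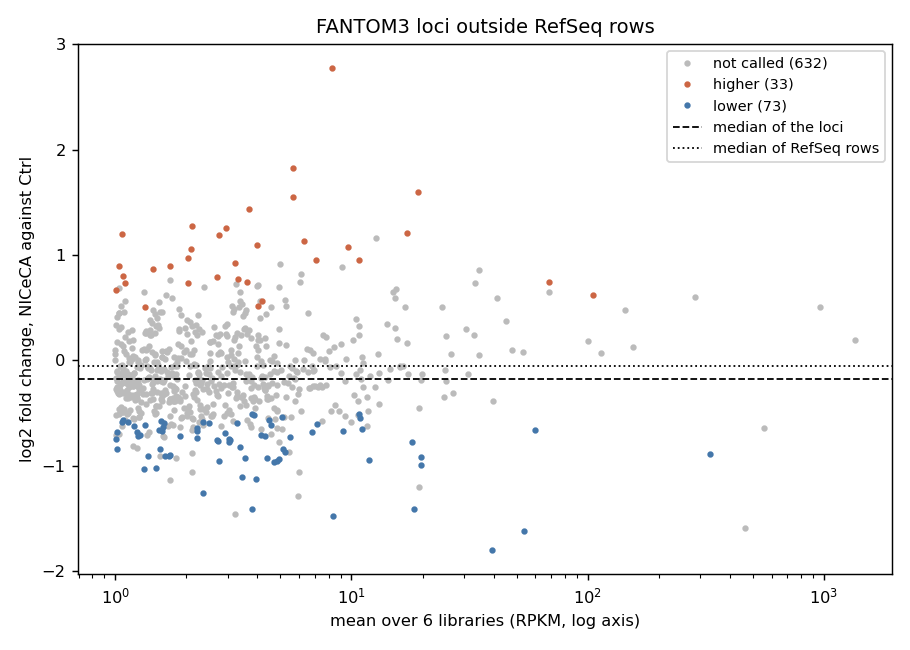
Mean level of each of the 738 tested loci over the 6 libraries (RPKM, log axis) against its log2 fold change between NICeCA and Ctrl. Each point is 1 locus, coloured by its call (33 higher, 73 lower, 632 not called), and the dashed and dotted lines are the medians of the loci (-0.17) and of the RefSeq rows (-0.05).

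The 2 largest decreases lay in Neat1. The RefSeq row of Neat1 covers only the short 5′ form (chr19:5842302-5845478), and both clones lie downstream of it within the exon of the long form in GENCODE. The clone 5830408G10 (chr19:5834118-5835940) had 44.7, 72.5 and 67.4 RPKM in Ctrl and 14.5, 13.4 and 23.3 RPKM in NICeCA. It fell by 1.80 on the log2 scale (SE 0.24, adjusted p = 0.010 with limma). The clone F630311A01 (chr19:5838075-5840178) had 57.2, 72.7 and 116 RPKM in Ctrl and 22.9, 20.2 and 33.1 RPKM in NICeCA, and fell by 1.62 (SE 0.27, adjusted p = 0.019). In both clones the highest NICeCA library was below the lowest Ctrl library, a condition for naming loci by the size of their change.

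The RefSeq row fell too, and reads of the short and long forms were not told apart there. The Neat1 row had 227, 325 and 228 RPKM in Ctrl and 82.2, 109 and 132 RPKM in NICeCA, a log2 fold change of -1.27 (adjusted p = 0.019). The level of 5830408G10 was 19.7% to 29.5% of that of the Neat1 row in Ctrl and 12.3% to 17.7% in NICeCA, and these ranges did not overlap. For F630311A01, which lies nearer to the Neat1 row, the ranges were 22.4% to 50.8% and 18.6% to 27.9% and overlapped. Both clones lost their call without NICeCA replicate 1 or without NICeCA replicate 2. Malat1, the nuclear RNA encoded next to Neat1, had 888 to 1307 RPKM in NICeCA and 1492 to 1624 RPKM in Ctrl and did not pass the test (log2 fold change -0.58, adjusted p = 0.064).

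**Figure D2:**
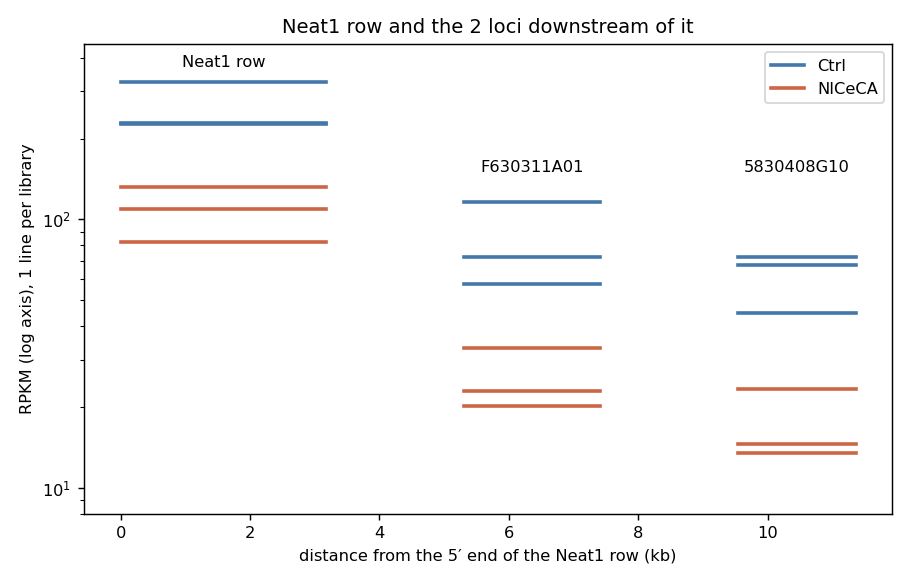
Level of the Neat1 row and of the 2 clones downstream of it (RPKM, log axis) against the distance from the 5′ end of the Neat1 row in kb. Each line is 1 library and spans its row or clone, and in all 3 places the 3 NICeCA lines lie below the 3 Ctrl lines.

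Other loci lay at the 3′ ends of protein-coding genes and moved with them. The largest increase was in 9530076L18 (chr13:16028820-16031354), inside the GENCODE exon of Inhba and downstream of its RefSeq row. Inhba encodes the βA subunit of activins and inhibins. The locus had 0.283, 0.743 and 4.18 RPKM in Ctrl and 10.5, 16.3 and 17.6 RPKM in NICeCA, with a log2 fold change of 2.77 (SE 0.46, adjusted p = 0.019). Ctrl replicate 3 was well above the other Ctrl libraries but below every NICeCA library. The Inhba row itself rose by 3.40 on the log2 scale (adjusted p = 0.019), and the locus stood at 17.9% to 28.0% of its level in Ctrl and at 22.3% to 27.4% in NICeCA. The locus lost its call without NICeCA replicate 1 or without NICeCA replicate 2.

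The same was seen at Ctsl, which encodes the lysosomal protease cathepsin L. The locus 1190035F06 (chr13:64361876-64362817) had 3.32, 3.44 and 3.97 RPKM in Ctrl and 10.2, 8.33 and 8.58 RPKM in NICeCA, a log2 fold change of 1.13 (SE 0.14, adjusted p = 0.0090). The groups lay well apart, and the call was kept when any single library was left out. Its level was only 1.66% to 2.06% of that of the Ctsl row in Ctrl and 1.51% to 1.75% in NICeCA. The Ctsl row rose from 167 to 219 RPKM in Ctrl to 522 to 585 RPKM in NICeCA (log2 fold change 1.5, adjusted p = 0.0078).

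The locus E030041H03 (chr14:31229670-31230333) continues Sema3g, a secreted semaphorin, and had 14.7, 7.98 and 7.34 RPKM in Ctrl and 16.9, 32.7 and 23 RPKM in NICeCA. The lowest NICeCA library was only just above the highest Ctrl library, and the log2 fold change was 1.21 (adjusted p = 0.037). The locus and the Sema3g row stood at similar levels, with ratios of 104% to 117% in Ctrl and 105% to 119.9% in NICeCA. Its call was lost when any library but Ctrl replicate 1 was left out, with a replicate block (adjusted p = 0.056) and with quantile normalization (adjusted p = 0.068), and the Sema3g row rose by 1.14 (adjusted p = 0.037).

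Among the decreases at 3′ ends, 6430563H09 (chr7:96908627-96911088) continues Tenm4, a transmembrane teneurin. It had 10.2, 14.3 and 13.5 RPKM in Ctrl and 3.34, 3.07 and 5.54 RPKM in NICeCA, and fell by 1.48 (adjusted p = 0.012). The locus B430312A05 (chr6:100807451-100810911) continues Gxylt2, which encodes a xylosyltransferase that modifies the extracellular repeats of Notch receptors. It had 3.79, 6.24 and 5.25 RPKM in Ctrl and 1.47, 1.51 and 2.46 RPKM in NICeCA, and fell by 1.11 (adjusted p = 0.021). The groups did not overlap in either locus, as the choice of named loci required. The RefSeq rows also fell, Tenm4 by 1.55 (adjusted p = 0.020) and Gxylt2 by 1.39 (adjusted p = 0.023). Both loci lost their call without NICeCA replicate 1 or 2.

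A second set of named loci lay in noncoding RNAs, in introns, in genes without a RefSeq row or where no gene is annotated. The locus with the second largest increase, A130051O18 (chr7:143628024-143628726), is the antisense RNA E230032D23Rik and starts 179 bases from Tnfrsf26, a receptor of the tumor necrosis factor family. It had 2.70, 1.11 and 2.12 RPKM in Ctrl and 7.64, 11.6 and 8.90 RPKM in NICeCA. The log2 fold change was 1.82 (SE 0.23, adjusted p = 0.0090), and the call was kept when any single library was left out. The Tnfrsf26 row rose by 2.10 (adjusted p = 0.0083), and its 16.9 to 19.8 RPKM in NICeCA lay above its 2.14 to 5.34 RPKM in Ctrl.

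The locus with the smallest adjusted p was 4930430E12 (chr4:6352105-6357530), a spliced antisense RNA 8150 bases from Sdcbp, the gene of the scaffold protein syntenin-1. It had 2.02, 2.00 and 3.13 RPKM in Ctrl and 8.14, 10.7 and 7.86 RPKM in NICeCA (log2 fold change 1.55, SE 0.18, adjusted p = 0.0088). Sdcbp rose by 1.09 (adjusted p = 0.023). The spliced locus 2400009B08 (chr8:3671188-3672321) is the protein-coding gene Fcor, a corepressor of Foxo1, and had 1.61, 1.00 and 2.05 RPKM in Ctrl and 5.0, 6.46 and 6.04 RPKM in NICeCA (log2 fold change 1.44, adjusted p = 0.0090). Its nearest RefSeq row, 1810033B17Rik, rose by 1.64 (adjusted p = 0.020). The loci 4930430E12 and 2400009B08 rested on 71 to 341 and on 14 to 80 reads per library. Each kept its call when any single library was left out. Their NICeCA libraries all lay above their Ctrl libraries, as the choice of named loci required.

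The strongest decrease by adjusted p was C430005K08 (chr7:75769040-75772046), within AU020206, a long intergenic noncoding RNA. It had 23, 28.4 and 30.0 RPKM in Ctrl and 7.64, 9.81 and 11.5 RPKM in NICeCA. It fell by 1.41 (SE 0.17, adjusted p = 0.0090) and kept its call when any single library was left out. The nearest RefSeq row, Akap13, lies on the other strand and did not pass the test (log2 fold change -0.24, adjusted p = 0.33).

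The other 4 named increases had log2 fold changes of 1.19 to 1.60, and groups that did not overlap were a condition for naming them. F630314A02 (chr5:43784046-43786115), beside the iron-sensing F-box gene Fbxl5, had 6.79, 5.68 and 16.4 RPKM in Ctrl and 26.9, 25.1 and 33.6 RPKM in NICeCA. Fbxl5 rose by 0.99 (adjusted p = 0.023). 2010309M24 is the long noncoding RNA Gm13391 and had 1.96, 0.733 and 1.37 RPKM in Ctrl and 4.57, 4.82 and 4.15 RPKM in NICeCA, while its neighbour Usp6nl did not pass the test (log2 fold change -0.25). F630115N01 (chr10:96601534-96604877) lies where GENCODE has no gene, 12.1 kb from Btg1, an antiproliferative gene. It had 0.0613, 0.0901 and 0.659 RPKM in Ctrl and 1.40, 1.91 and 2.30 RPKM in NICeCA, and Btg1 rose by 1.09 (adjusted p = 0.036). The locus reached the level for testing through NICeCA alone, with a Ctrl mean of 0.270 RPKM. 9930021P14 is the unconfirmed gene Gm37199, whose nearest RefSeq row was Slc7a11, the cystine transporter, 180.7 kb away. It had 1.08, 0.420 and 2.68 RPKM in Ctrl and 3.69, 4.75 and 3.81 RPKM in NICeCA and lost its call when any library but Ctrl replicate 3 was left out and with a pseudocount of 0.1. Slc7a11 rose by 2.01 (adjusted p = 0.017). The call of each of these 4 was lost without NICeCA replicate 1 or 2, and that of F630314A02 without Ctrl replicate 1 too.

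The other 5 named decreases were of 1.02 to 1.41 on the log2 scale, and 4 of them lay inside introns. B930023G09 (chr15:62264401-62265912) lies in an intron of Pvt1, the long noncoding RNA encoded next to Myc. It had 4.28, 10.3 and 3.56 RPKM in Ctrl and 0.707, 1.97 and 1.88 RPKM in NICeCA, and fell by 1.41 (SE 0.35, adjusted p = 0.039), while the Pvt1 row fell by 1.43 (adjusted p = 0.048). The intronic locus stood at 13.0% to 18.5% of the Pvt1 row in Ctrl and at 9.41% to 18% in NICeCA. A130088B03 lies in an intron of Lncppara, upstream of the let-7 microRNA row Mirlet7c-2, and had 3.21, 6.01 and 2.17 RPKM in Ctrl and 0.546, 1.12 and 1.09 RPKM in NICeCA. 5430440L12, next to the splicing regulator Rbm4, had 4.04, 7.71 and 5.62 RPKM in Ctrl and 1.51, 2.13 and 2.58 RPKM in NICeCA.

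9530034D22 lies in an intron of Svil, the gene of the actin-binding protein supervillin. It had 2.23, 1.79 and 2.97 RPKM in Ctrl and 0.385, 0.671 and 0.849 RPKM in NICeCA. 2900016I12, with no GENCODE gene and 9.56 kb from Baiap2, had 2.00, 2.82 and 1.56 RPKM in Ctrl and 0.208, 0.862 and 0.511 RPKM in NICeCA. Like A130088B03 and 9530034D22, this locus reached the level for testing through Ctrl alone. Groups that did not overlap were a condition for naming these 5 loci. The last rested on 4 to 59 reads per library, and all 5 lost their call without NICeCA replicate 1 or 2. Calls were also lost without Ctrl replicate 1 (B930023G09, A130088B03), without Ctrl replicate 2 (B930023G09, 2900016I12) and without NICeCA replicate 3 (B930023G09). With quantile normalization B930023G09, A130088B03 and 2900016I12 also lost their calls (adjusted p = 0.086, 0.080 and 0.061).

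**Figure D3:**
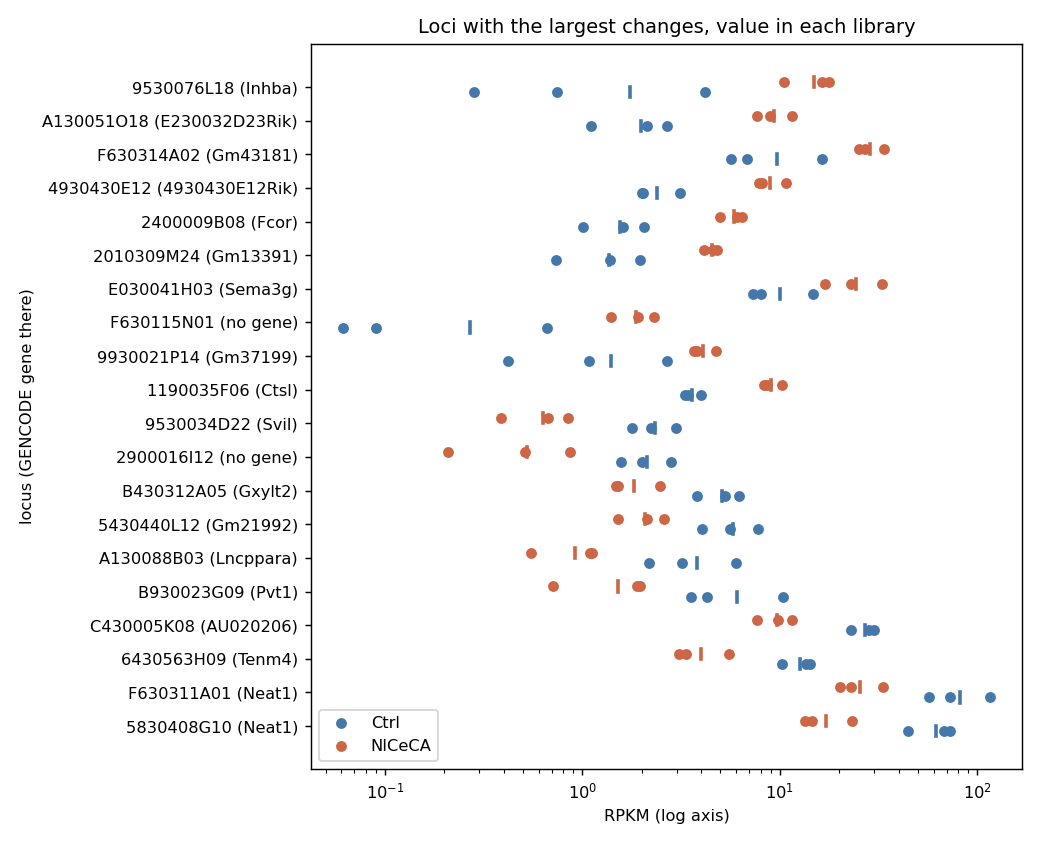
Level in each library (RPKM, log axis) of the 10 loci with the largest increase and the 10 with the largest decrease among called loci whose groups do not overlap, with the GENCODE gene at the locus in brackets. Points are libraries and short bars are group means, and the lowest Ctrl values, 0.0613 and 0.0901 RPKM, belong to F630115N01.

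Position was then set against the calls. In GENCODE, 453 loci overlapped an exon on their own strand, 275 of them in a gene that also had a RefSeq row. Of these 275, 6 were higher and 26 lower, with a median log2 fold change of -0.21. Another 178 lay in exons of genes with no RefSeq row, and 12 were higher and 17 lower. No GENCODE gene was present at 183 loci, of which 12 were higher and 12 lower. A further 33 overlapped an exon on the other strand only, with 3 higher and 1 lower, and 16 an intron on the other strand, with 0 higher and 2 lower. In that order, the shares called in either direction were 11.6%, 16.3%, 13.1%, 12.1% and 12.5%, beside 13.6% of all rows tested. The library kit named in the study is not a stranded one and the strand setting of the counting is not given, so reads from the other strand cannot be told apart here.

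The 53 loci inside introns on the same strand had 0 higher and 15 lower, which is 28.3% of them beside 9.23% lower over all rows, and their median log2 fold change was -0.49. The difference from other classes was not tested. Of the 53, 26 reached the level for testing through Ctrl alone. These gave 7 of the 15 decreases, A130088B03, 9530034D22 and D030048D01 among them. The 27 that reached it in both groups gave 8. Those 15 loci included 3 beside Rbm4 and 2 upstream of Mirlet7c-2, so they are not 15 separate places. They also included loci within Pik3ca, Jmjd1c and Ncoa6, which encode a lipid kinase subunit, a demethylase-family protein and a nuclear receptor coactivator. The locus D030048D01 in Jmjd1c had 1.73, 1.84 and 1.92 RPKM in Ctrl and 0.796, 0.611 and 0.780 RPKM in NICeCA, and fell by 0.71 (adjusted p = 0.023), while the Jmjd1c row did not pass the test (log2 fold change 0.03, adjusted p = 0.91). The locus 9630038B04 in Pik3ca had 1.84, 1.95 and 2.65 RPKM in Ctrl and 0.898, 1.19 and 1.15 RPKM in NICeCA, and fell by 0.59 (adjusted p = 0.042), beside a log2 fold change of -0.09 for the Pik3ca row (adjusted p = 0.67). In Ncoa6 the locus D030059C06 and the row both fell, by 0.62 and 0.64.

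The intronic count depended on single libraries more than the median did. Without Ctrl replicate 2 there were 6 lower loci, and without NICeCA replicate 1 or without NICeCA replicate 2 there were 0, while the median stayed between -0.62 and -0.36 when any single library was left out. Without Ctrl replicate 2, NICeCA replicate 1 and NICeCA replicate 2 in turn, the calls over all rows tested fell from 3211 to 1077, 178 and 137. With quantile normalization 3 were lower and the median was -0.26, and without a filter on low values, which adds many rows to the adjustment, 0 were lower. The row of the ribosomal RNA precursor, Rn45s, had 5049, 8473 and 2483 RPKM in Ctrl and 1119, 1435 and 2580 RPKM in NICeCA, a log2 fold change of -1.56 that did not pass the test (adjusted p = 0.053), and its part in these differences was not tested.

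Loci downstream of a RefSeq row on the same strand were the most common, 368 of the 738. Of these, 7 were higher and 47 lower, 14.7% in all beside 13.6% of all rows, with a median log2 fold change of -0.23. The lower count fell to 37, 12 and 27 without Ctrl replicates 1, 2 and 3 in turn, and 10 were higher without Ctrl replicate 3. It fell to 30 without NICeCA replicate 3 and to 0 without NICeCA replicate 1 or NICeCA replicate 2. Calls over all rows tested also fell in these settings. With quantile normalization 8 were higher and 10 lower with a median of -0.06, and without a filter 1 was higher and 3 lower. The 304 that lay within 5 kb of the row moved with it: across the 300 pairs in which both were tested, the log2 fold changes had r = 0.83, and 220 had the same sign. The points share their libraries, and many may be 1 transcript, so that the correlation is a description. Over all 621 loci with a tested neighbour, r was 0.65 and 418 had the same sign. Among loci more than 20 kb from any RefSeq row, r was 0.47 over 63 pairs.

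Calls were shared with neighbours in the same direction or not at all. Of the 33 higher loci, 29 had a tested neighbour, of which 15 were also called higher and 14 were not called. Of the 73 lower loci, 62 had a tested neighbour, of which 23 were also called lower and 39 were not called. In 0 of the 91 pairs was the neighbour called in the other direction. Over all RefSeq rows tested, 5.92% were called higher and 7.73% lower. Of the 73 lower loci, 47 lay downstream of their nearest row on the same strand, where locus and row may be 1 transcript. The sharing of calls is therefore a description and was not tested. Distance alone did not order the calls: 13.1% of the loci up to 1 kb away, 13.1% of those at 1 to 5 kb, 22.6% of those at 5 to 20 kb and 11.4% of those beyond 20 kb were called.

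**Figure D4:**
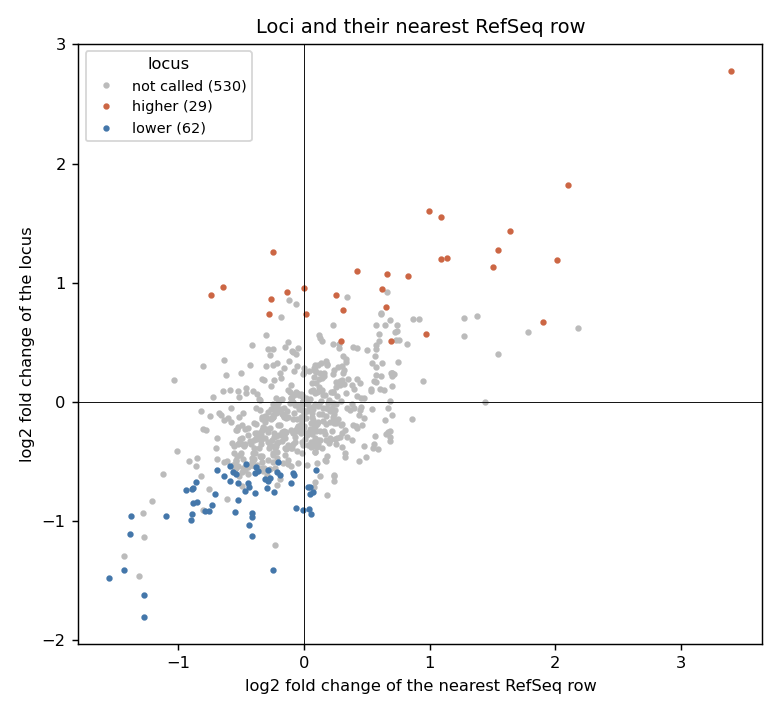
Log2 fold change (NICeCA against Ctrl) of the nearest RefSeq row on the horizontal axis and of the locus on the vertical axis, for the 621 loci whose nearest row was tested. Each point is 1 locus coloured by its call, and called loci lie mostly where both axes have the same sign (78 of 91).

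Divergent loci were counted next. Of the 99 loci that lay within 1 kb upstream of a RefSeq row on the opposite strand, 12 were higher and 2 were lower, beside 4.33% and 9.23% of all rows. Of these 99 loci, 15 reached the level for testing through NICeCA alone and gave 5 of the 12 increases, A930024K12, E330039I04, D730001M18, G530013B08 and F630226C07. The 80 that reached it in both groups had 7 higher and 1 lower. Over all 99 loci the median log2 fold change was 0.09, while that of the RefSeq rows beside them was -0.07 over the 94 loci with a tested row. Under quantile normalization 13 were higher and 0 lower, and without a filter 2 and 0. The higher count fell to 7 without Ctrl replicate 1 or NICeCA replicate 3, to 5 without Ctrl replicate 2 and to 9 without Ctrl replicate 3. In the last setting 4 were lower. The higher count fell to 2 without NICeCA replicate 1 and to 1 without NICeCA replicate 2. The median stayed between 0.06 and 0.14 when any single library was left out. Calls over all rows tested also fell without each of these libraries.

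**Figure D5:**
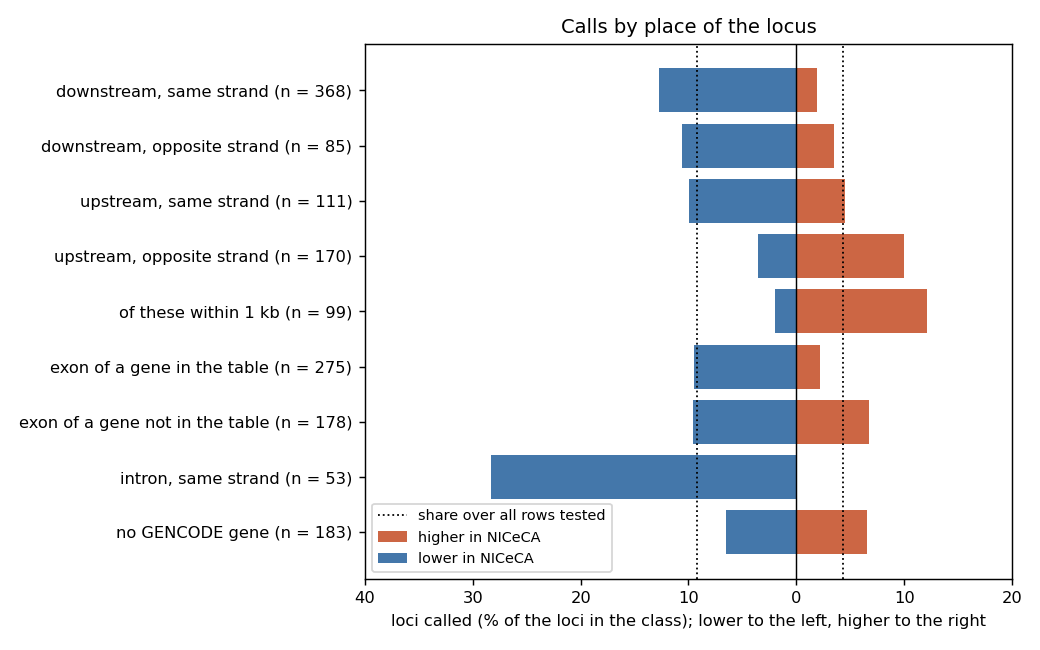
Share of loci called higher (right) and lower (left) in NICeCA, in percent of the loci of each class, for the place relative to the nearest RefSeq row (upper bars) and the GENCODE annotation (lower bars). The dotted lines are the shares over all rows tested, 4.33% higher and 9.23% lower, and the intronic bar reaches 28.3% lower with no higher locus.

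Apart from A130051O18, the divergent locus with the largest increase was B230207M22 (chr13:5860326-5861197), 292 bases from Klf6, a gene of a zinc-finger transcription factor. It had 6.37, 5.36 and 5.79 RPKM in Ctrl and 12.1, 16.2 and 12.1 RPKM in NICeCA, a log2 fold change of 1.07 (adjusted p = 0.012), while Klf6 rose by 0.66 (adjusted p = 0.043). Beside Bcl2a1d, an antiapoptotic gene of blood cells, F630226C07 had 1.05, 0.728 and 1.18 RPKM in Ctrl and 2.66, 4.56 and 2.44 RPKM in NICeCA. It rose by 1.06 (adjusted p = 0.024), and the Bcl2a1d row had a log2 fold change of 0.83 that did not pass the test (adjusted p = 0.096). Beside Thbs1, which encodes the angiogenesis inhibitor thrombospondin-1, E330039I04 had 0.619, 0.274 and 0.779 RPKM in Ctrl and 1.29, 1.41 and 1.65 RPKM in NICeCA. It rose by 0.67 (adjusted p = 0.040), less than Thbs1 itself (1.90, adjusted p = 0.020).

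Other divergent loci rose beside genes that did not pass the test. G530013B08 (chr16:23989075-23992453), 463 bases from the transcriptional repressor gene Bcl6, had 0.591, 0.461 and 1.18 RPKM in Ctrl and 1.98, 2.58 and 1.85 RPKM in NICeCA. Its log2 fold change was 0.86 (adjusted p = 0.029), beside -0.26 for Bcl6 (adjusted p = 0.21). 5830433I10, 168 bases from the chromatin remodeller gene Chd1, had 1.40, 1.18 and 1.24 RPKM in Ctrl and 3.0, 2.74 and 2.63 RPKM in NICeCA. Its log2 fold change was 0.74 (adjusted p = 0.020), beside -0.28 for Chd1 (adjusted p = 0.25). D030037F14, beside the actin-binding protein gene Dbnl, and 1810044H07, beside 4930481A15Rik, rose by 0.74 and 0.96, with 0.02 and 0.00 in the rows next to them. The 2 lower divergent loci were F630227J01 beside Cdc5l (-0.71) and A130014A01 beside Zdhhc7 (-0.61), and neither gene passed the test. The difference between each locus and its gene was not tested.

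The promoters of these pairs were searched for the motifs TGGGAA of RBPj and CACGTG of MYC, on both strands of 300 bases from RefSeq. Over all 32851 promoters of the table, 25.6% held TGGGAA and 7.15% held CACGTG. Of the 66 promoters found for RefSeq rows beside divergent loci, 14 held TGGGAA and 10 held CACGTG. Of the 12 divergent loci called higher, 7 had a promoter found. Of these 7 promoters, 1 held TGGGAA and 3 held CACGTG, and of the 57 beside loci not called, 13 and 7 did. G530013B08 beside Bcl6 (CACGTG) and F630226C07 beside Bcl2a1d (TGGGAA) reached the level for testing through NICeCA alone. A link between motif and call was not tested, and 7 promoters are too few to show one. The 3 with CACGTG are shown, chosen after their values were seen, in GRCm38.p6 and in the direction of the gene, with CACGTG in capitals. They lie at chr13:5861239-5861538 (plus strand), chr16:23988803-23989102 (minus strand) and chr10:120201548-120201847 (minus strand).
Klf6: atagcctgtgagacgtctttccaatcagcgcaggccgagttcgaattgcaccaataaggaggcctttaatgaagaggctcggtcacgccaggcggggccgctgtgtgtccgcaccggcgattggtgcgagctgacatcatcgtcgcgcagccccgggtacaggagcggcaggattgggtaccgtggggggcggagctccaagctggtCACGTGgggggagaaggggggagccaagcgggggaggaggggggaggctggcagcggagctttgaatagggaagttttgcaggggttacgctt
Bcl6: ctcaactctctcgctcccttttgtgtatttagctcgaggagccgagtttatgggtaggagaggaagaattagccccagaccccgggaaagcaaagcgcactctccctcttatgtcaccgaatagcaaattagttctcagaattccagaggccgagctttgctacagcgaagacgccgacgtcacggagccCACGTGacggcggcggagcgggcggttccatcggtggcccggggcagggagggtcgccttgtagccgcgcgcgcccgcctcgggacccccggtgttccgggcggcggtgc
Irak3: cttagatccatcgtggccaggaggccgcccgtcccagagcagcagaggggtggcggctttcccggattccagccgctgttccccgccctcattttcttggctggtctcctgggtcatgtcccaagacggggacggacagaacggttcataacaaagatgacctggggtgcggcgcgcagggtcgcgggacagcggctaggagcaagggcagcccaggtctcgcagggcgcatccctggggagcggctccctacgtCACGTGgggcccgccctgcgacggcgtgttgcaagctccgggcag
Irak3 encodes an inhibitor of Toll-like receptor signalling. The locus beside it on the other strand, E030044N10, lies in an exon of Tmbim4 in GENCODE. It had 3.14, 1.32 and 2.26 RPKM in Ctrl and 4.14, 4.44 and 4.58 RPKM in NICeCA (log2 fold change 0.77, adjusted p = 0.044), with all NICeCA libraries above Ctrl. A match of these letters is a description of the sequence and not a binding site.

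Few loci lay next to genes of the lists used. Of 22 Notch target genes, 1 was the nearest row of a tested locus (Cxcr4), as was 1 of 17 genes of MYC and the cell cycle (Npm1), and neither locus was called. The endothelial, neutrophil and macrophage marker lists had 0. The neutrophil markers were nonetheless higher in NICeCA, as given above, and their part in the increases beside Tnfrsf26, Bcl2a1d and Irak3 was not tested.

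Of the 8 most abundant loci, 5 are described, and 1 of these was called. It was G830027M03 (chr8:123425874-123434150), which lies opposite to an intron of Def8 and near the tubulin gene Tubb3. It had 350.5, 530.3 and 398 RPKM in Ctrl and 192, 208 and 287 RPKM in NICeCA, and fell by 0.89 (SE 0.21, adjusted p = 0.035). The groups did not overlap, while the Tubb3 row had 4.49 to 7.77 RPKM in Ctrl and 4.95 to 8.31 RPKM in NICeCA and did not pass the test (log2 fold change -0.06, adjusted p = 0.87). The call was lost without Ctrl replicate 2, NICeCA replicate 1 or NICeCA replicate 2.

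On the mitochondrial genome 4 loci were tested and 1 was called higher, 0610041I18, with a log2 fold change of 0.62 (adjusted p = 0.039). D030018G08, opposite to mt-Nd3, had 879, 709 and 778 RPKM in Ctrl and 902, 1274 and 1210 RPKM in NICeCA, with groups that did not overlap but an adjusted p of 0.089. I420007J21, opposite to mt-Nd6, had 165 to 329 RPKM in Ctrl and 254 to 464 RPKM in NICeCA, and the groups overlapped.

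The other abundant loci were nuclear. C730003K16 on chromosome 11, with no GENCODE gene, had 60.7 to 189 RPKM in Ctrl and 128 to 221 RPKM in NICeCA and was not called (adjusted p = 0.39). 3110001P10 on chromosome 18, upstream of the casein kinase gene Csnk1a1, had the closest values, 143 to 158 RPKM in Ctrl and 154 to 169 RPKM in NICeCA (log2 fold change 0.12, adjusted p = 0.51).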

How the data were processed

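RNA-seq of CD31-selected TECs was compared between 3 Ctrl and 3 NICeCA mice, each sample matched to its column through its library label. The authors deposited RPKM values per row, from reads aligned with TopHat2 per the labels; how reads were counted, on which strand and with which annotation version is not stated in the sources at hand. The labels name mm9, but 99.4% of 21853 RefSeq rows overlapped their GENCODE gene (release M21) in GRCm38, so the positions were read as GRCm38. RPKM times length came out as whole reads (tolerance 0.05) in every library, which gave the depth. RefSeq rows spanning over 2.5 Mb (50 rows) also excluded FANTOM3 rows, and 2 rows whose end preceded their start were left out.

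log2(RPKM + 1) was compared in R 4.3.3 by limma 3.58.1 (moderated by eBayes on a mean-variance trend, two-sided, Benjamini-Hochberg over all rows averaging 1 RPKM or more). The pseudocount of 1 makes the fold changes of low rows smaller. The scripts were tested on simulated data. The loci, lists and tests were chosen with earlier results of these data known. Named are the 10 loci with the largest called increase and decrease whose groups did not overlap, the 8 most abundant (3 of them are not reported here), the 5 with the smallest adjusted p, and their nearest RefSeq rows; called divergent and intronic loci and some called neighbours were named after their values were seen. Normalizations, filters, pseudocount, voom on recovered reads, other row sets, a replicate block and leaving out each library were tried. Medians and counts by class carry no test.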

Additional observations from a re-analysis of the deposited data

How the results depend on the processing

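No pairing of the samples by library number was evident. Correlations of same-numbered deviations were 0.17, -0.27 and -0.14, beside -0.32 to 0.39 for the other pairs. With 3 libraries a group these values cannot exclude a pairing. With a replicate block 27 loci were higher and 56 lower. Leaving out 1 library at a time gave 4 to 38 higher and 1 to 58 lower loci, medians of -0.21 to -0.11, and differences in the share of reads of -0.18 to -0.0998 percentage points, beside -0.139 with all libraries. The counts moved by over 1.5 times without Ctrl replicate 2 (16 higher, 23 lower), NICeCA replicate 1 (7 and 1), NICeCA replicate 2 (4 and 1) and NICeCA replicate 3 (19 and 45). Calls over all rows tested fell there too, from 3211 to 1077, 178, 137 and 2073. With quantile normalization 18 loci were lower and the median was 0.0080. Without a filter on low values 9 were higher and 11 lower of 6153 loci, with a median of 0.0078; at a mean of at least 5 RPKM, 11 and 19 of 165. Loci at least 5 kb from RefSeq rows gave 11 higher and 30 lower of 242, and a share difference of -0.0112. With reads on RefSeq rows as the denominator that difference was -0.211. Without RefSeq rows over 2.5 Mb as a mask, tried after the data were seen, 34 of 756 were higher and 75 lower. Of 390 alternative values for the 25 named loci, 323 kept their direction and side of the threshold and 66, all of called loci, lost the call. The other changed sign in a locus never called, 3110001P10 (-0.19 with quantile normalization). Of the named called loci, 4 lost the call with quantile normalization and 14 without a filter. Where a cause is not given by the setting itself, it was not tested. Trimmed mean scaling moved the median of all rows from -0.12 to -0.06. With 3 libraries a group, loci of few reads had little precision.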
